A study of Canis lupus familiaris with 25 samples.

Results

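The genes described here are 36 genes of the peroxisome, listed by name, that build the organelle or carry out its lipid oxidation, ether lipid synthesis and peroxide breakdown. A gene was included if its symbol is a row name of the count table, and 32 of the 36 were found among 24532 genes. ABCD2, PHYH, HACL1 and ECH1 were not found under these symbols and were not analysed here. The rule itself uses gene names and no measured value, although the list was drawn up with earlier results of these data known.

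The study measured gene expression by QuantSeq 3′, which sequences the 3′ ends of messenger RNA, in archival formalin-fixed, paraffin-embedded (FFPE) tumors of dogs. Hepatoid gland adenoma (HGA, n = 10) is a benign tumor of the perianal hepatoid glands, which are modified sebaceous glands, and came from dogs of 8 to 14 years. Apocrine gland anal sac adenocarcinoma (AGASAC, n = 11) is a malignant tumor of the anal sac glands, and its primary tumors came from dogs of 8 to 12.5 years. The remaining 4 samples were sublumbal lymph node metastases of AGASAC 1 to 4, from dogs of 8 to 10 years. The dogs were of several breeds and of both sexes, and no treatment is given in the labels. The labels number the HGA and primary AGASAC samples separately but do not state that each came from another dog, so p-values measure the spread between these samples. Benign against malignant growth and hepatoid against apocrine gland cannot be told apart in this design.

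Peroxisomes are organelles bounded by a single membrane that shorten fatty acids too long or too branched for mitochondria and make the first intermediates of ether lipids. Their oxidases release hydrogen peroxide, which catalase breaks down. Peroxins, the products of the PEX genes, insert the membrane proteins, import the enzymes from the cytosol and divide the organelle. Sebaceous and related glands are rich in lipid synthesis, and fatty alcohols are building blocks of the waxes in sebum.

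The libraries held 1562347 to 6389555 counts on genes in HGA, 2581453 to 4218340 in AGASAC and 2857541 to 3289546 in the metastases. Levels are CPM (counts relative to library size) scaled by TMM over all 25 samples, and a count of 3 corresponds to 0.543 to 1.84 CPM. A marker list of hepatoid or sebaceous gland summed to 4910 to 39400 CPM in HGA, 0 to 31.9 CPM in AGASAC and 0.643 to 26.5 CPM in the metastases, and 6 of its 6 genes were called higher in HGA. A list of apocrine anal sac gland genes summed to 0 to 34.2, 3970 to 9360 and 3350 to 9330 CPM. Both lists were chosen with earlier results of these data known, so their sums are no independent check of the labels. HGA 10 had the lowest hepatoid sum (4910 CPM) and the highest proliferation marker sum (255 CPM) of the HGA samples. The 5 adipocyte genes summed to 132 to 1380 CPM in HGA and 2.37 to 400 CPM in AGASAC, and the sum in HGA was mostly CIDEC (median 292 CPM in HGA and 0 in AGASAC). PLIN4 (34.7 and 0 CPM) and PLIN1 (1.3 and 0 CPM) had higher medians in HGA, LEP was at 0 in both, and ADIPOQ, which defines fat cells, had a median of 1.23 CPM in HGA and 19.5 CPM in AGASAC. The skeletal muscle list summed to 1.71 to 29.2 CPM in HGA and 8.26 to 849 CPM in AGASAC. The T cell list had median sums of 7.82 CPM in HGA, 25 CPM in AGASAC and 44.4 CPM in the metastases. The B cell list had medians of 13.3, 18 and 28 CPM, and the lymph node stroma list 95.6, 100 and 53.7 CPM. The stroma sum was mostly CLU (medians 43.3, 84.9 and 40.1 CPM) and, in HGA, also CCL21 (43, 2.41 and 4.21 CPM). CCL19 (1.62, 0.904 and 3.99 CPM) and CXCL13 (0, 0 and 1.76 CPM) had their highest medians in the metastases. The hepatocyte list reached at most 31.6 CPM in HGA. The part of other cell types in the results was not tested, and in whole tissue fewer cells of a type and less RNA per cell cannot be told apart.

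The comparison HGA versus AGASAC asked which peroxisome genes differ between the tumor types. Of the 32 genes, 11 were up in HGA, 2 were down and 19 were not called. The up genes covered membrane assembly (PEX3 and PEX19), import (PEX13, 1 of 8 genes), division (PEX11A) and β-oxidation (ACOX2 and SCP2, 2 of 6 enzymes). They also covered ether lipid synthesis (AGPS and GNPAT), peroxide breakdown (CAT), PECR and the transporter ABCD4. The down genes were CROT and FAR2. A gene was called at an adjusted p of at most 0.05 and an absolute log2 fold change (log2FC) of at least 1 by edgeR's quasi-likelihood test over all 12070 genes tested, with Benjamini-Yekutieli adjustment, and all 32 genes passed the filter on low counts. Among all genes tested 25.1% were called, 12.6% up and 12.5% down in HGA, against 34.4% of the 32 up and 6.25% down. The median log2FC, HGA minus AGASAC, was 0.72 over the 32 genes and −0.03 over all genes. With library size alone as scaling, which moved the median of all genes to −0.33, the split was 9 up and 4 down: PEX13 and PECR were no longer called, and ACAA1 and FAR1 were called down. The split of all genes was then 1053 up and 2156 down, against 1523 and 1509 with TMM.

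**Figure D1:**
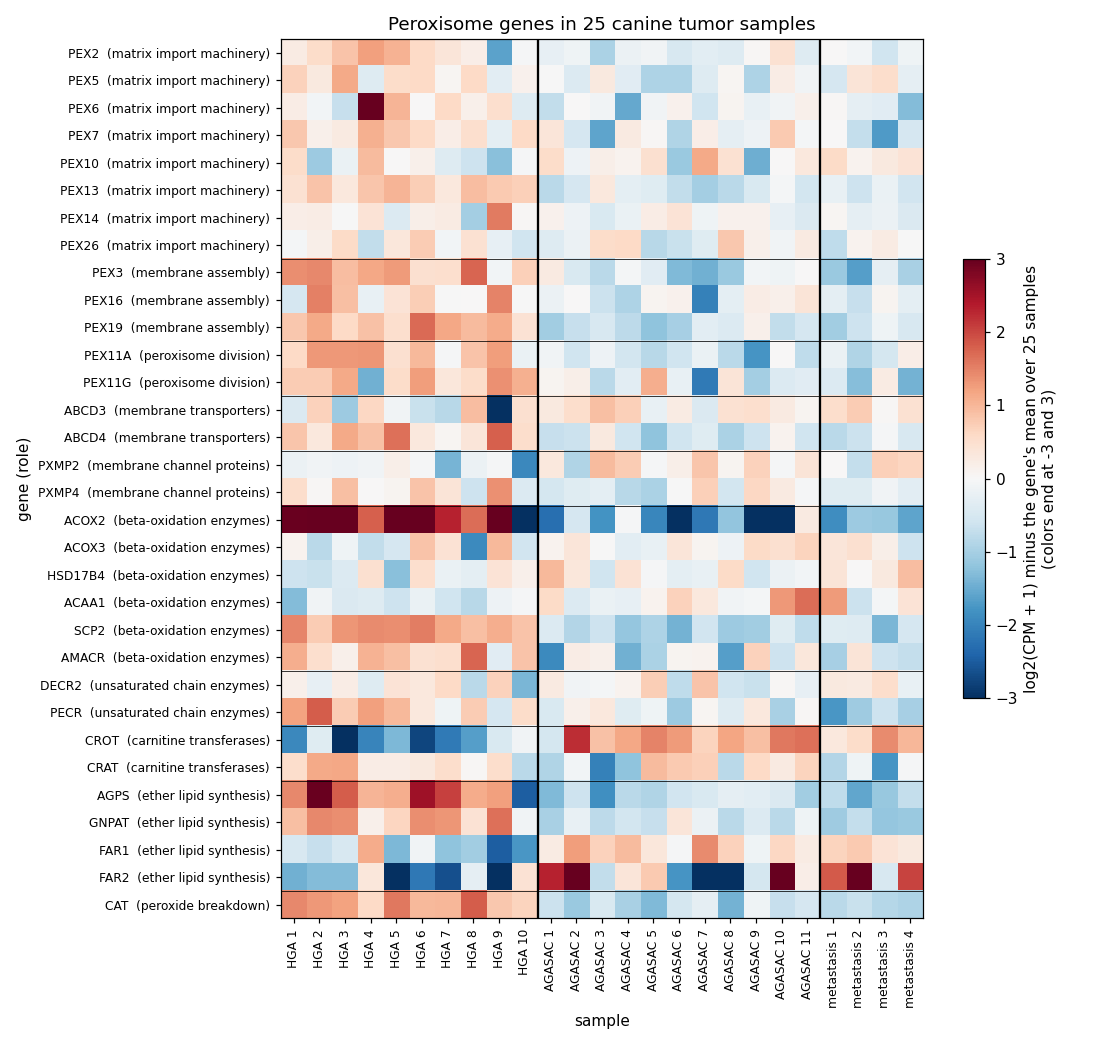
Heatmap of the 32 peroxisome genes (rows, with their role) in the 25 samples (columns, by group). Color is log2(CPM + 1) minus the mean of the gene over the 25 samples. SCP2, CAT and PEX19 are above their mean in every HGA, CROT is below it in every HGA, and HGA 10 is blue for ACOX2 and AGPS.

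Of the peroxins that insert membrane proteins, 2 of 3 were up in HGA. PEX19 is the cytosolic chaperone that carries new membrane proteins to the peroxisome. Its level was 104.5, 147.8 and 255.5 CPM (lowest, median and highest) in HGA, and 32.97, 47.38 and 86.6 CPM in AGASAC. The groups did not overlap, since HGA 10, the lowest HGA, was above AGASAC 9, the highest AGASAC. PEX19 had a mean of 153.3 ± 43.84 CPM (SD, n = 10) in HGA and 51.23 ± 14.9 CPM (SD, n = 11) in AGASAC, with a log2FC of 1.61 (SE 0.182, adjusted p = 1.38e-06).

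PEX3 is the membrane anchor on which PEX19 docks. Its lowest, median and highest levels were 16.97, 37.99 and 62.44 CPM in HGA and 5.942, 13.88 and 21.7 CPM in AGASAC. The groups overlapped at HGA 9, the lowest HGA, which was below AGASAC 1, AGASAC 4 and AGASAC 11. The means were 38.09 ± 13.87 and 13.36 ± 5.258 CPM, and the log2FC of PEX3 was 1.54 (SE 0.255, adjusted p = 0.000279). PEX16, which recruits PEX3, had means of 20.14 ± 10.92 and 11.59 ± 4.444 CPM and was not called (log2FC 0.83, SE 0.314, adjusted p = 0.333).

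Of the 8 genes of matrix import, 1 was up (12.5%), near the 12.6% of all genes. PEX13 is part of the docking site that the enzyme receptors use at the membrane. It was at 50.39, 69.82 and 83.61 CPM (lowest, median, highest) in HGA and at 19.57, 28.43 and 50.41 CPM in AGASAC. The groups touched at a single pair, HGA 7 and AGASAC 3. PEX13 had means of 67.19 ± 11.3 and 29.77 ± 8.751 CPM, with a log2FC of 1.21 (SE 0.164, adjusted p = 2.05e-05).

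The other import genes were not called. PEX5, the receptor for the C-terminal import signal, had a log2FC of 0.71 (SE 0.208, adjusted p = 0.0728). PEX2, a ring finger protein that recycles this receptor, had one of 0.74 (SE 0.234, adjusted p = 0.119). PEX7, the receptor for the N-terminal signal, stood at 0.62 (SE 0.241). PEX14, the docking partner of PEX13, was at 0.37 (SE 0.247). PEX26, the anchor of the export ATPase, was at 0.08 (SE 0.24), and it was at −0.24 with library size alone. PEX10, another ring finger protein, was at −0.24 (SE 0.315).

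PEX6, a subunit of the ATPase that pulls the receptor out of the membrane, had a log2FC of 1.46 (SE 0.46, adjusted p = 0.116). It was at 142.6 CPM in HGA 4, the library with the fewest counts, and at 6.845 to 24.81 CPM in the 9 other HGA samples. AGASAC ranged from 3.335 to 13.12 CPM, and without HGA 4 the log2FC was 0.51.

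Both genes of division had higher means in HGA. PEX11A, which elongates the membrane before division, was called. It was at 20.64, 45.75 and 61.48 CPM in HGA and at 6.309, 15.51 and 24.16 CPM in AGASAC (lowest, median, highest). The overlap came from HGA 10 and HGA 7, the lowest HGA samples. The log2FC of PEX11A was 1.47 (SE 0.234, adjusted p = 0.000169). PEX11G of the same family was low in both groups (6.486 ± 2.788 and 3.015 ± 2.199 CPM) and was not called (log2FC 1.14, SE 0.447, adjusted p = 0.395).

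ACOX2 had the highest log2FC of the 32 genes. It encodes the oxidase that starts the breakdown of branched fatty acids and of bile acid side chains. ACOX2 was at 0, 89.17 and 522.2 CPM in HGA (lowest, median, highest) and at 0, 1.735 and 11.91 CPM in AGASAC. The value of 0 in HGA belonged to HGA 10, and the 9 other HGA samples, from 32.86 CPM, were all above every AGASAC. In AGASAC, 3 samples had no count. The median there was not far above the level of 3 counts (0.729 to 1.05 CPM), which leaves the size of the fold uncertain. The means were 129.3 ± 153.2 and 3.454 ± 4.085 CPM, with a log2FC of 5.201 (SE 0.821, adjusted p = 0.00015), and of 5.35 without HGA 10 (adjusted p = 1.42e-05). Leaving out each sample in turn moved the log2FC of ACOX2 between 4.62, without HGA 5, which held the highest value, and 5.60, without AGASAC 11.

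SCP2 encodes the thiolase that completes branched-chain oxidation and, from a shorter transcript of the same gene, sterol carrier protein 2; counts of 3′ ends do not separate the products. SCP2 was at 543.3, 756.4 and 943.2 CPM in HGA and at 120.6, 175.8 and 251.4 CPM in AGASAC (lowest, median, highest). The groups were far apart; every HGA was above every AGASAC. The means were 748.3 ± 141.8 and 184.1 ± 41.99 CPM, and the log2FC of 2.05 (SE 0.154, adjusted p = 2.33e-09) had the lowest adjusted p of the 32 genes.

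The other 4 enzymes of β-oxidation were not called. AMACR, the racemase that converts branched acyl-CoA into the form that the oxidase accepts, was at 33.94, 70.97 and 147.9 CPM in HGA and at 10.85, 45.83 and 70.54 CPM in AGASAC (lowest, median, highest). Its log2FC of 1.07 (SE 0.311, adjusted p = 0.0688) missed the threshold. ACAA1, the thiolase of straight chains, was at 55.62 ± 13.81 CPM in HGA and 105.5 ± 58.67 CPM in AGASAC (log2FC −0.89, SE 0.248, adjusted p = 0.0512). AGASAC 10 and AGASAC 11 were the highest for ACAA1, at 186.1 and 241.5 CPM. ACOX3, another branched-chain oxidase, had a log2FC of −0.21 (SE 0.298). HSD17B4, the bifunctional enzyme between oxidase and thiolase, had one of −0.16 (SE 0.231).

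Of the reductases for unsaturated chains, PECR was called. It was at 6.788, 17.67 and 37.97 CPM in HGA and 4.135, 9.024 and 12.75 CPM in AGASAC, and the groups overlapped. Its log2FC was 1.104 (SE 0.281, adjusted p = 0.0241). Without HGA 1 the adjusted p was 0.0519, and without HGA 2 it was 0.072 with a log2FC of 0.93. DECR2, the dienoyl-CoA reductase, was at 31.04 ± 12.26 and 30.44 ± 12.08 CPM (log2FC 0.06, SE 0.254), and at −0.25 on the log2 scale with library size alone.

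CROT, the carnitine octanoyltransferase that hands shortened chains on to mitochondria, was down in HGA. It was at 0.57, 2.909 and 11.61 CPM in HGA and at 8.439, 29.82 and 61.76 CPM in AGASAC (lowest, median, highest). AGASAC 1, at 8.439 CPM, was the only AGASAC within the range of HGA, and HGA 10 was the highest HGA. The log2FC of CROT was −2.74 (SE 0.425, adjusted p = 0.000118), with means of 4.632 ± 3.908 and 31.67 ± 13.73 CPM. CRAT, the acetyltransferase for shorter chains, was not called (log2FC 0.35, SE 0.318).

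AGPS and GNPAT encode the enzymes of the first steps of ether lipid synthesis, and both were up in HGA. AGPS was at 32.25, 462.3 and 1442 CPM in HGA and at 50.41, 118.6 and 151.4 CPM in AGASAC (lowest, median, highest). HGA 10 was below every AGASAC, while the other HGA samples, from 374.4 CPM, were above every AGASAC. The log2FC of AGPS was 2.46 (SE 0.373, adjusted p = 8.62e-05), with means of 602.8 ± 401.9 and 110.9 ± 31.69 CPM, and it was 2.61 without HGA 10 (adjusted p = 3.38e-07).

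GNPAT was at 69.67, 165.2 and 238.4 CPM in HGA and at 37.37, 51.14 and 97.17 CPM in AGASAC. HGA 10 was again the lowest HGA, and AGASAC 6 was the only AGASAC above it. The means were 154 ± 59.06 and 55.78 ± 17.41 CPM, with a log2FC of 1.49 (SE 0.224, adjusted p = 7.59e-05).

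FAR1 and FAR2 reduce fatty acyl-CoA to the fatty alcohols that ether lipids and waxes are made from. FAR2 was at 0, 2.125 and 9.891 CPM in HGA and at 0, 8.262 and 760.8 CPM in AGASAC (lowest, median, highest). AGASAC 2 held the value of 760.8 CPM, AGASAC 10 had 147.9 CPM, and AGASAC 7 and AGASAC 8 had 0. The log2FC of FAR2 was −4.81 (SE 1.249, adjusted p = 0.0283), but −2.79 without AGASAC 2 (adjusted p = 0.225), and the call was also lost on leaving out any of HGA 1, 2, 3, 5, 6, 7 and 9 (adjusted p = 0.0556 to 0.0603). DESeq2 did not call FAR2 either (log2FC −2.64, adjusted p = 0.24).

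FAR1 was at 1.697, 7.149 and 31.36 CPM in HGA and at 12.62, 21.87 and 38.8 CPM in AGASAC. HGA 4, at 31.36 CPM, was far above the next HGA at 12.86 CPM. FAR1 was not called (log2FC −1.24, SE 0.364, adjusted p = 0.0715), and without HGA 4 it was called down (−1.66, adjusted p = 0.00101).

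CAT, which encodes catalase, was up in HGA. It was at 119.3, 169.6 and 278.1 CPM in HGA and at 28.81, 50.03 and 71.69 CPM in AGASAC (lowest, median, highest). The groups did not overlap. The means were 180.1 ± 51.89 and 48.7 ± 13.73 CPM, with a log2FC of 1.91 (SE 0.19, adjusted p = 1.84e-07).

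Of the transporters, ABCD4 was up. Its product belongs to the peroxisomal half-transporter family but is known for moving cobalamin out of lysosomes. It was at 9.715, 15.56 and 34.79 CPM in HGA and at 3.471, 5.832 and 11.56 CPM in AGASAC, with overlap only from HGA 7, AGASAC 3 and AGASAC 10. The log2FC of ABCD4 was 1.53 (SE 0.272, adjusted p = 0.000656). ABCD3, which imports branched acyl-CoA and bile acid intermediates, was not called (log2FC −0.35, SE 0.375), and HGA 9 stood at 0.848 CPM while the other HGA samples ranged from 21.1 to 88.73 CPM. The membrane proteins PXMP2, a channel for small solutes, and PXMP4 had log2FCs of −0.67 (SE 0.27) and 0.55 (SE 0.256), and neither was called.

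**Figure D2:**
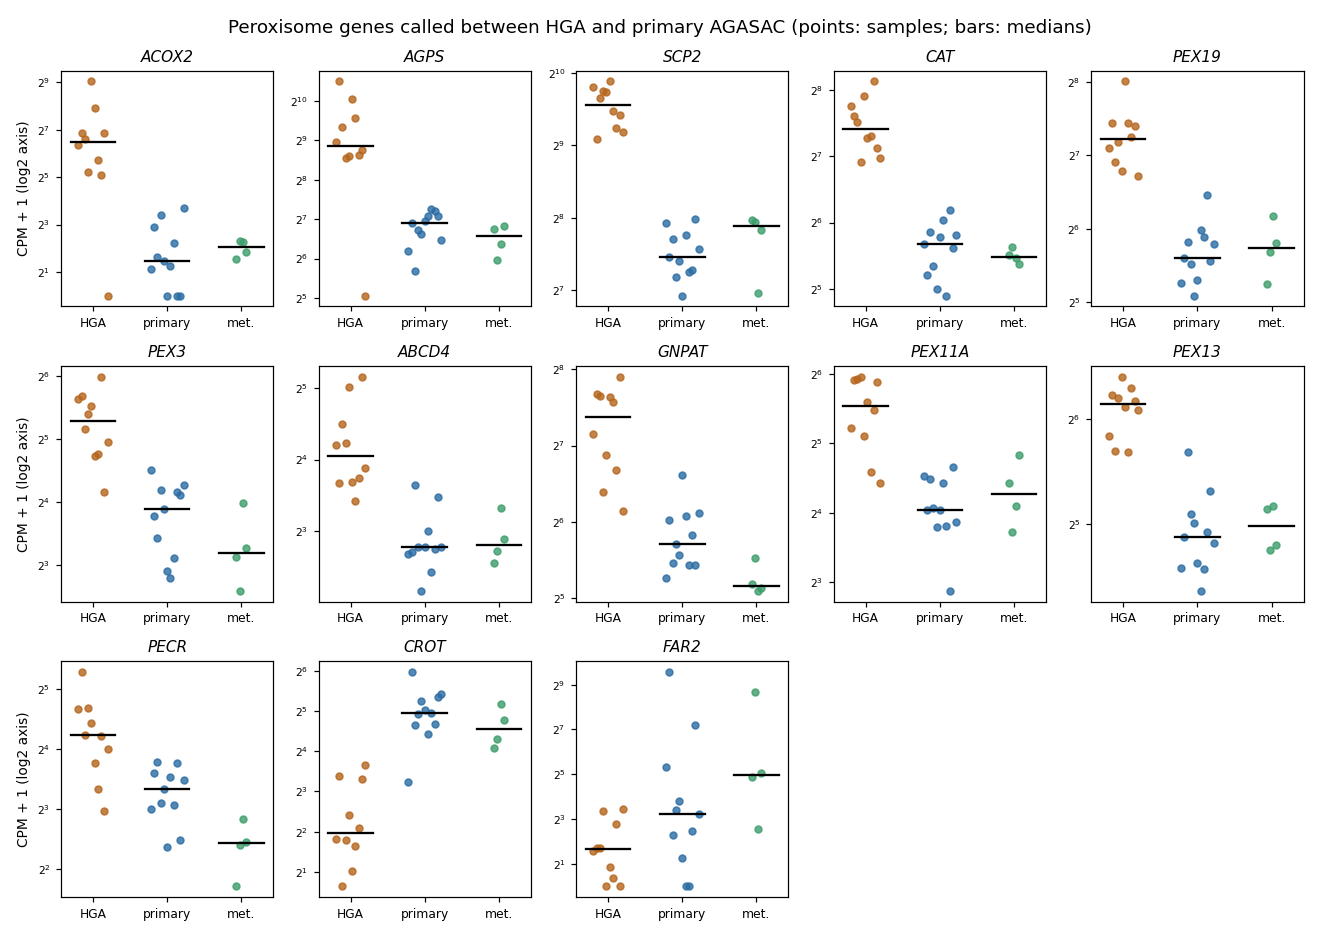
CPM + 1 on a log2 axis of the 13 called peroxisome genes, a panel per gene, with points for the 10 HGA, 11 primary AGASAC and 4 metastases (met.) and bars for medians. SCP2, CAT and PEX19 of HGA and AGASAC do not overlap, the low HGA point of ACOX2 and AGPS is HGA 10, and the high FAR2 points are AGASAC 2 and the metastasis of the same dog.

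The samples of a group were not alike. Of the 11 genes up in HGA, HGA 10 was the lowest HGA in 5, and it was the highest HGA in both genes that were down. Over all 32 genes, HGA 9 and HGA 10 were each the lowest HGA in 8, and HGA 9 was the highest in 7. RNA quality, as DV200 (the percentage of longer RNA fragments), was 70.5 to 92.7 in HGA, with HGA 9 the highest. It was 70.2 to 84.4 in AGASAC and 71.8 to 82.9 in the metastases, and its part was not tested. Without HGA 10 the counts were again 11 up and 2 down, and without AGASAC 2 they were 11 up and 1 down. Of all genes, 13.5% were up and 13.8% down without HGA 10, and 12.5% and 11.9% without AGASAC 2. The part of the low hepatoid marker sum of HGA 10 was not tested.

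RNA was extracted in batches, of which batches 5, 6, 7 and 8 held both tumor types (3, 3, 1 and 2 HGA with 3, 2, 1 and 3 AGASAC), and batch 7 held too few samples for a fit. Within batch 5, 0 of the 31 genes tested were called, against 1.29% of all genes up and 0.826% down. Within batch 6, 2 of 31 were up, against 2.64% up and 2.2% down. Within batch 8, 1 of 32 was up, against 1.6% up and 0.858% down. By edgeR, 11, 17 and 13 of the genes had an unadjusted p under 0.05 in these batches. Of all genes, 3179 of 12356, 4827 of 13159 and 4642 of 13758 had one. Of the 13 called genes, 12 had the direction of the full comparison in batch 5, FAR2 being the exception at 0.80. In batch 6, 12 of the 12 tested had it, and in batch 8 13 of 13. The batches are parts of the samples that gave the calls, so these directions are no independent check. The log2FC of SCP2 was 1.906, 2.557 and 2.103 in the 3 batches, and that of ACOX2 was 5.72, 5.64 and 5.53. Others moved more: PECR was at 0.46, 2.26 and 0.296, and PEX3 at 1.88, 2.03 and 0.707. With the batch as a term of the fit, 10 genes were up and 1 was down (12.5% and 12.4% of all genes), and PECR (log2FC 0.963, adjusted p = 0.271) and FAR2 (−1.70, adjusted p = 1) were not called.

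The study's list of sequencing files names them in 2 series, of which the first held 9 HGA and 3 AGASAC samples and the second held 7 AGASAC samples with a single HGA, HGA 10. AGASAC 4, whose file is not in that list as used here, was left out of these fits. With the series as a term 6 genes were up and 2 down (8.17% and 8.84% of all genes), and ACOX2 (log2FC 4.55, adjusted p = 0.303), AGPS (2.39, adjusted p = 0.177), ABCD4, PECR and PEX11A were not called. Within the first series, 6 were up and 2 down (8.44% and 7.62% of all genes), with ACOX2 at 5.47 (adjusted p = 0.0103) and AGPS at 3.07 (adjusted p = 0.00357). PEX3 (1.43, adjusted p = 0.138), PEX13 (1.01, adjusted p = 0.142), PEX11A, ABCD4 and PECR were not called there. The second series could give no value of its own, as it held a single HGA. In both fits the 13 called genes had the direction of the full comparison, which is no independent check, since the samples are among those that gave the calls.

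The comparison HGA versus metastasis uses the same HGA samples as the comparison above. Of the 32 genes, 9 were up in HGA and 1 was down by the same test over 13195 genes. The share of all genes called was 16.1%, with 8.4% up and 7.69% down, against 28.1% and 3.12% of the 32. The median log2FC was 1.01 over the 32 genes and 0.02 over all genes. PEX3, PEX19, PEX13, ACOX2, SCP2, PECR, AGPS, GNPAT and CAT were up and FAR2 was down. With library size alone 6 were up and 2 down (all genes 788 and 1383), since AGPS, PECR and PEX13 were not called and CROT was.

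CAT was at 44.45, 48.82, 43.1 and 40.57 CPM in metastases 1 to 4, and every HGA was higher (log2FC 2.05, SE 0.258, adjusted p = 0.000178). SCP2 was at 249.2, 244.9, 123.5 and 226.2 CPM in the metastases, with metastasis 3 below the others (log2FC 1.85, SE 0.254, adjusted p = 0.000413). PEX19 was at 36.98, 50.14, 70.76 and 54.95 CPM (log2FC 1.54, SE 0.264, adjusted p = 0.00305). None of these genes overlapped between HGA and the metastases.

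GNPAT was at 35.36, 44.84, 33.13 and 34.18 CPM in the metastases, below every HGA (log2FC 2.08, SE 0.337, adjusted p = 0.00192). PEX3 was at 7.786, 5.041, 14.8 and 8.626 CPM, also below every HGA (log2FC 2.09, SE 0.38, adjusted p = 0.00516). PEX13 was at 34.39, 26, 35.06 and 26.84 CPM (log2FC 1.17, SE 0.214, adjusted p = 0.00577). PEX13, too, did not overlap.

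PECR was at 2.271, 4.245, 6.111 and 4.473 CPM in the metastases, below every HGA (log2FC 2.13, SE 0.465, adjusted p = 0.0227). ACOX2 was at 1.947, 3.98, 3.86 and 2.556 CPM, above HGA 10 and below the other HGA samples (log2FC 5.37, SE 1.193, adjusted p = 0.0255). AGPS was at 106.7, 61.02, 82.34 and 111.8 CPM, again above HGA 10 alone (log2FC 2.75, SE 0.643, adjusted p = 0.0365). These 3 calls were the least stable. AGPS was lost on leaving out any of the 4 metastases, or HGA 1, 3, 6 or 7. ACOX2 was lost on leaving out any metastasis. PECR was lost without metastasis 1, 2 or 4 (adjusted p = 0.113, 0.0883 and 0.084).

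FAR2 was at 27.9, 401.1, 4.825 and 31.95 CPM in the metastases, and the value of 401.1 CPM came from the dog of AGASAC 2 (log2FC −5.19, SE 0.94, adjusted p = 0.00502). Without metastasis 2 it was −2.70 (adjusted p = 0.413). CROT was at 15.9, 18.84, 35.06 and 26.2 CPM, above every HGA, and just missed the call (log2FC −2.34, SE 0.576, adjusted p = 0.052). PEX11A (1.25, SE 0.338, adjusted p = 0.0973) and ABCD4 (1.51, SE 0.411, adjusted p = 0.0979), which were called between HGA and AGASAC, were not called here.

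The other 19 genes were not called. The highest log2FC among them were those of PEX11G (1.73, SE 0.646, adjusted p = 0.514), PEX6 (1.65, SE 0.776), AMACR (1.22, SE 0.364, adjusted p = 0.165) and PEX7 (1.21, SE 0.332, adjusted p = 0.103). The lowest was that of FAR1 (−1.14, SE 0.515).

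**Figure D3:**
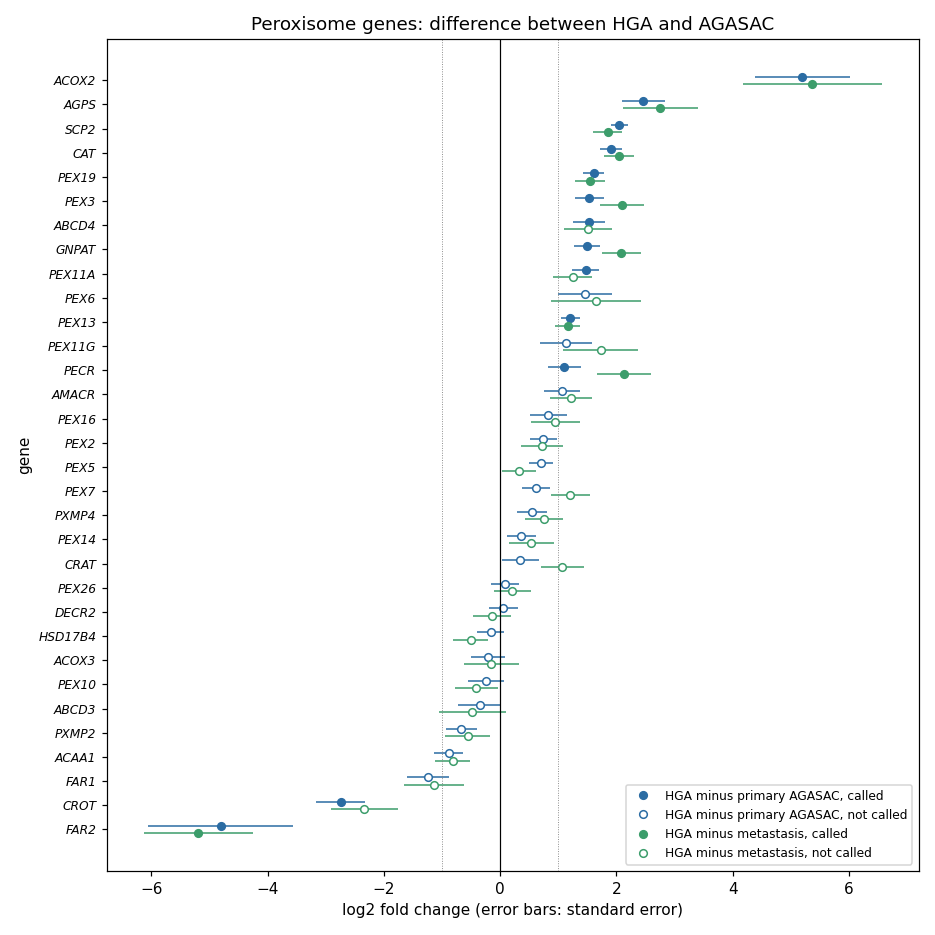
The log2 fold change (points) with its standard error (bars) of the 32 peroxisome genes, HGA minus primary AGASAC in blue and HGA minus metastasis in green. Filled points were called, dotted lines mark −1 and 1, and both comparisons share the 10 HGA samples. ACOX2 lies furthest to the right and CROT and FAR2 furthest to the left.

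The comparison of metastasis versus primary tumor asked whether the genes differ between the 4 metastases and the primary AGASAC of the same 4 dogs. The main fit had no term for the dog, so its p-values and standard errors do not use the pairing. None of the 31 genes tested was called (PEX11G was filtered out for low counts). Of all 12629 genes, 0% were called in either direction, 0% up and 0% down. Without adjustment 1 of the 31 genes, PECR, and 145 of all genes had a p under 0.05 by edgeR. DESeq2 called 0 of the peroxisome genes and 5 of all genes. The log2FC, metastasis minus primary tumor, ranged from −1.15 to 0.43 with a median of 0.03, against 0.00 over all genes.

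The 4 genes with the lowest p were PECR, PEX3, GNPAT and ACAA1. PECR was lower in the metastasis in 4 of 4 dogs, from 6.932, 11.11, 12.75 and 7.505 CPM in the primary tumors of dogs 1 to 4 to 2.271, 4.245, 6.111 and 4.473 CPM. These 4 primary tumors and the metastases did not overlap, but the log2FC of −1.15 (SE 0.408, edgeR p = 0.0197) had an adjusted p of 1. Over all 11 primary tumors, the lowest level of PECR was 4.135 CPM, within the range of the metastases. PEX3 was lower in 3 dogs and higher in dog 3 (log2FC −0.77, SE 0.396, adjusted p = 1).

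GNPAT was lower in 4 of 4 dogs, from 37.37, 64.05, 42.99 and 51.14 CPM to 35.36, 44.84, 33.13 and 34.18 CPM (log2FC −0.41, SE 0.223, adjusted p = 1). ACAA1 was higher in 3 of 4 dogs (log2FC 0.43, SE 0.402, adjusted p = 1), and its log2FC was −0.08 with all 11 primary tumors. With the dog as a block, GNPAT had a log2FC of −0.39 and 0 of the peroxisome genes were called. In that fit edgeR gave an unadjusted p under 0.05 for 2 of 31 peroxisome genes and 491 of all 12629 genes. Of all genes, 1 was called.

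FAR2 was at 39.18, 760.8, 3.855 and 9.45 CPM in the primary tumors of dogs 1 to 4 and at 27.9, 401.1, 4.825 and 31.95 CPM in their metastases. Dog 2 was the highest and dog 3 the lowest in both tissues, while dogs 1 and 4 changed order. A link between the tissues of a dog was not tested for this gene.

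**Figure D4:**
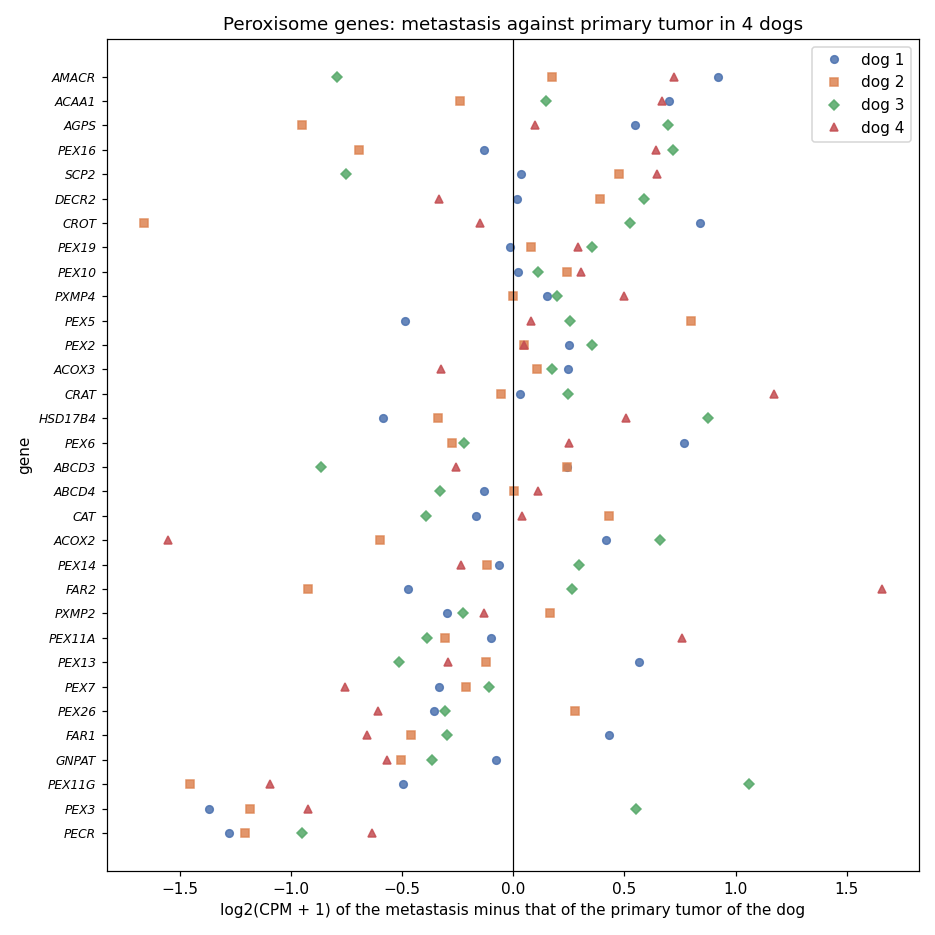
Difference of log2(CPM + 1) between the metastasis and the primary AGASAC of the same dog (horizontal axis) for the 32 peroxisome genes (vertical axis, by median), with a symbol for each of the 4 dogs. PECR, GNPAT and PEX7 lie below 0 in 4 of 4 dogs, and PEX2, PEX10 and PXMP4 lie above 0 in 4 of 4 dogs by 0.498 or less.

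Another 45 genes of peroxisomal proteins were taken as a wider list, also chosen with earlier results of these data known. Of these, 40 were found and 34 were tested. In HGA versus AGASAC, 10 were up and 3 down, which is 29.4% and 8.82% against the 12.6% and 12.5% of all genes. HAO2, without a count in AGASAC, passed the filter on low counts through HGA alone, while PIPOX, nearly absent from HGA, did not pass it. The shares are therefore no independent check of the first list. The median log2FC of the 34 tested genes was 0.41. The highest were HAO2, DHRS4, ACOT4 and ECI2, and the genes that were down were XDH, ACBD4 and MAVS.

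HAO2, which encodes a peroxisomal hydroxy acid oxidase, had no count in any AGASAC or metastasis. It was at 33.54, 178 and 477.7 CPM in HGA (lowest, median, highest), and its mean of 218 CPM was at least 208-fold higher than the level that 3 counts per library give in AGASAC and at least 224-fold higher than in the metastases. DHRS4, a carbonyl reductase, was at 3.87, 2635 and 5079 CPM in HGA and 8.615, 20.82 and 40.09 CPM in AGASAC (log2FC 6.93, SE 0.667, adjusted p = 1.12e-07). HGA 10 had the 3.87 CPM, below every AGASAC.

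ACOT4, a thioesterase that releases acids from their CoA esters, had a log2FC of 4.92 (SE 0.464, adjusted p = 8.28e-08) with means of 93.73 ± 37.84 and 3.118 ± 2.21 CPM. ECI2, an enoyl-CoA isomerase, had one of 3.36 (SE 0.374, adjusted p = 1.11e-06) with means of 283.7 ± 154.8 and 28.22 ± 10.26 CPM. HGA 10 was also the lowest HGA in HAO2, ACOT4 and ECI2. DHRS4 and ACOT4 belong to families of similar copies, so the even split of multi-mapped reads leaves their levels uncertain.

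XDH, xanthine dehydrogenase, was down with a log2FC of −2.69 (SE 0.646, adjusted p = 0.0145) but ranged from 1.398 to 179.6 CPM in AGASAC. ACBD4, an acyl-CoA binding protein that tethers peroxisomes to the endoplasmic reticulum, had a log2FC of −2.41 (SE 0.308, adjusted p = 8.66e-06) and did not overlap between the groups. MAVS, an antiviral adaptor on mitochondria and peroxisomes, had one of −1.19 (SE 0.193, adjusted p = 0.000215). PIPOX, pipecolic acid oxidase, never exceeded 1 count in HGA, while its mean in AGASAC was 7.147 CPM, so HGA was at least 3.87-fold lower, with no test because it did not pass the filter.

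In HGA versus metastasis, 9 of the 34 tested were up and 2 were down (26.5% and 5.88%, against 8.4% and 7.69% of all genes). In metastasis versus primary tumor 0 of 33 were called, and 1 had an unadjusted p under 0.05 by edgeR, ACBD4.

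**Figure D5:**
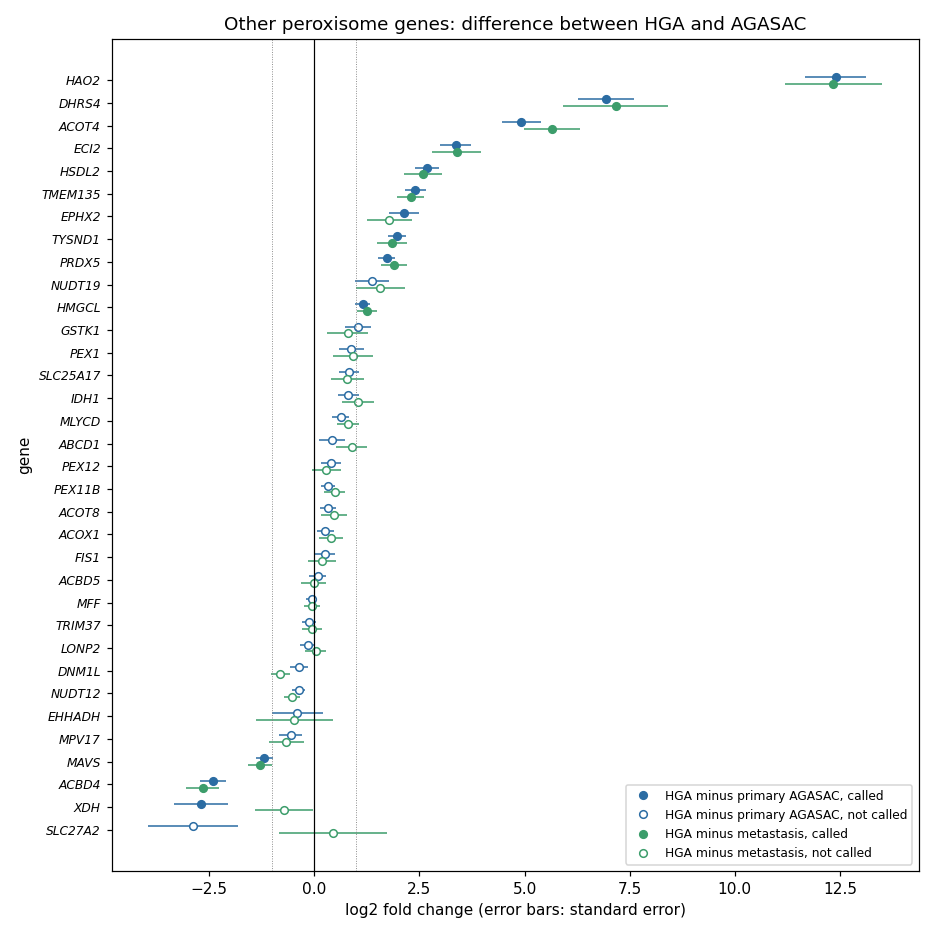
The log2 fold change (points) with its standard error (bars) of the 34 tested genes of the wider peroxisome list, HGA minus primary AGASAC in blue and HGA minus metastasis in green, filled where called. HAO2, DHRS4, ACOT4 and ECI2 lie furthest to the right. The fitted value of HAO2 is no estimate of its fold, since AGASAC and the metastases had 0 counts.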

How the data were processed

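RNA from 25 FFPE tumors was sequenced by QuantSeq 3′ FWD. The authors trimmed reads with cutadapt, aligned them to CanFam3.1 with STAR, counted them with featureCounts, extending the annotation at the 3′ end for reads not assigned at first, and split multi-mapped reads evenly. The authors deposited whole counts per gene. Tool versions and the strand setting of the counting are not given in the sources used here. 25 columns of normalized counts and the columns of the authors' comparison (fold change, its error and p-values) were not used.

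The 25 count columns were matched to samples by their labels. Counts were fitted in R 4.3.3 with edgeR 4.0.16: filterByExpr (minimum count 10, minimum total 15), TMM, quasi-likelihood test, Benjamini-Yekutieli adjustment over all genes tested, no covariate. HGA versus AGASAC used 21 tumors, metastasis versus primary 8 samples and HGA versus metastasis 14. SE is the absolute log2FC over the root of F. DESeq2 1.42.0, RLE, library size alone, other filters, Benjamini-Hochberg, blocks, batches and each sample left out were alternatives. The fits were tested on simulated data. Every gene of the list is accounted for, called ones with full values; in the metastasis comparison, with none called, the 4 lowest p, and of the wider list the 4 largest rises and up to 4 falls, are named. The genes and lists were chosen with earlier results of these data known. Extraction batches and file names come from the study's supplement.

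Metastases and primary tumors were paired through the dogs that the labels give, and a dog's samples deviated from their group means together (correlation 0.424 to 0.71 over genes, 4 of 4). Separate HGA samples, and separate AGASAC samples, differed by at least 12.2 and 24.7 chi-square per degree of freedom, so none repeated the counts of another. Without a known duplicate for comparison, these values cannot tell whether samples came from the same tumor or dog. The levels given for 3 counts cover counting error only. No sequence file was at hand, so none is printed.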

Additional observations from a re-analysis of the deposited data

Results flagged for a closer look

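Each of the 32 genes was examined in HGA and in the metastases for a sample far from the others of its group, by Dixon's ratio of gap to range on log2(CPM + 1). Of 64 groups, 7 passed the 95% critical value (10.9%), and chance gives about 1 in 20. They fell on HGA 4, HGA 9 and HGA 10, with 2 each, and on metastasis 3. In HGA 10, ACOX2 was at 0 CPM against 32.86 to 522.2 CPM in the other HGA samples, and AGPS was at 32.25 CPM against 374.4 to 1442 CPM. In HGA 9, PEX2 was at 19.09 CPM against 58.49 to 141.4 CPM, and ABCD3 was at 0.8485 CPM against 21.1 to 88.73 CPM. In HGA 4, PEX6 was at 142.6 CPM against 6.845 to 24.81 CPM, and PEX11G was at 0.6148 CPM against 4.554 to 10.18 CPM. PEX11G in HGA 4, ABCD3 in HGA 9 and ACOX2 in HGA 10 were below the level of 3 counts in their libraries (1.84, 1.27 and 1.29 CPM). In metastasis 3, SCP2 was at 123.5 CPM against 226.2 to 249.2 CPM.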

How the results depend on the processing

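In HGA versus AGASAC, 13 genes of the list were called, 11 up and 2 down. The total was within 1.5 times of that with DESeq2, RLE, library size alone, other filters, Benjamini-Hochberg, the 25-sample fit, the replicate block, all 15 AGASAC and the extraction batch as a term (where 1 was down; with library size alone 4 were down). In these settings, 7.85% (no filter) to 14.9% (Benjamini-Hochberg) of all genes were up. From 8.39% (no filter) to 17.9% (library size alone) were down. The total of the list was 8 with the naming series as a term and 8 within the first series (6 up in each). Within batches 5, 6 and 8 the total was 0, 2 and 1 (0 down in each). DESeq2 lost FAR2 and called AMACR (1.035, adjusted p = 0.0462) and FAR1 (−1.276, adjusted p = 0.0162). Leaving out each sample gave 11 to 14 called, 10 to 12 of them up and 1 to 3 down. Over the same fits, 2828 to 3373 of all genes were called. The wider list had 13 called genes and 3, 5 and 4 within the 3 batches. All genes called were 2009 with the series as a term, and 262, 637 and 338 within the batches, which hold fewer samples. Replicate numbers do not pair HGA with AGASAC or metastases (correlations −0.055 to 0.041). With the replicate block, 10 genes were up and 2 down (10.9% and 10.8% of all genes), FAR2 and PECR being lost and FAR1 gained.

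In HGA versus metastasis, 10 were called, 9 up and 1 down. With Benjamini-Hochberg 16 were called, 14 up and 2 down, and 3536 of all genes. DESeq2, RLE and library size alone gave 2 down, and DESeq2 called 3211 of all genes. With the replicate block, which joins samples that share only a number, 3 were up and 0 down, 6 of the wider list and 762 of all genes were called. Leaving out each sample gave 6 to 12 called, 6 to 10 up and 0 to 2 down, lowest without metastasis 2. Over the same fits, 1543 to 2588 of all genes were called. In metastasis versus primary, 0 peroxisome genes were called under every alternative run. Of all genes DESeq2 called 5 and the replicate block (the dog) 1.

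The log2FC of 6 genes not called in HGA versus AGASAC, and of FAR2, changed sign under some alternative. PEX10 was 0.391 and PEX14 −0.065 within batch 6. PEX26 was −0.235 with library size alone, −0.02 with the series as a term, −0.249 within batch 5 and −0.002 to 0.181 with a sample left out. DECR2 was −0.254, −0.19 and −0.19 in these, and −0.038 to 0.171. ACOX3 was 0.607 within batch 8, and HSD17B4 and FAR2 were 0.727 and 0.795 within batch 5. ACAA1 in metastasis versus primary was −0.073 in the 25-sample fit, −0.079 with 11 primary tumors and −0.012 to 0.705 with a sample left out. The cause was not tested. At 3 counts per library, the level is 0.543 to 1.84 CPM, and samples with at most 3 counts were found for PEX11G, ACOX2, FAR2, CROT (HGA 3) and ABCD3 (HGA 9).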
